A study of Rattus norvegicus with 14 samples.

Results

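In oesophagus of rats that had not been operated on, 1959 of 37385 stretches of 1000 bp differed in CpG methylation by 30 percentage points or more between the highest and the lowest of 4 libraries. The stretches, called tiles here, were counted from position 1 on chromosomes 1 to 20 of the assembly mRatBN7.2. A tile was eligible where at least 3 cytosines had 10 or more reads in all 4 libraries and where the reads at those cytosines summed to at least 40 in each. Methylation of a tile was the methylated share of the summed reads, and its range was the highest minus the lowest library. The 1959 variable tiles (5.24% of the eligible ones) were chosen by these values, so every value from the unoperated libraries is a description of the choice and supports nothing further.

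The libraries came from oesophageal tissue of male rats aged 8 to 9 weeks. The labels give no strain or genotype and do not say whether samples came from separate animals. Nonsurgical controls (NSC, 4 libraries) were full-thickness oesophagus. Day 1 (5 libraries) was host tissue punched from within 2 mm of the defect, 1 day after it was repaired with a bi-layer silk fibroin scaffold. Week 1 (4 libraries of 5 samples) was the new tissue in the graft area 1 week after repair, and 1 further week 1 sample is not analysed here. Time and the piece of tissue taken changed together, so they cannot be told apart, and neither can a different mix of cell types and a different methylation per cell.

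Most CpG cytosines of a mammalian genome carry a methyl group, whereas CpG-dense stretches at many gene starts carry none. Tiles between these extremes can hold molecules of both kinds, or cytosines of high methylation beside others of low methylation. A bulk value between 0 and 100% can come from a mixture of cell types, from differences between the parental chromosomes, or from molecules that differ within a cell type. Bisulfite turns unmethylated cytosine into a base that is read as thymine, so an unmethylated cytosine and a thymine in the DNA itself give the same read.

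Reads summed over cytosines of chromosomes 1 to 20 came to 25168010 to 47558937 in the NSC libraries, 16940688 to 32826848 in the 4 deeper day 1 libraries and 10804225 to 25322385 in week 1. The shallowest day 1 library (replicate 2, 9007170) was left out of the main measures so that every range was over 4 libraries. The median variable tile had 70 to 88 summed reads per NSC library, below the median eligible tile in every library. A read that covers several cytosines was counted at each of them, and the intervals given below cover counting error only and take tiles as independent, although all tiles come from the same few libraries.

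The median range of the variable tiles was 35.1 points and the largest was 74.8, against a median of 9.29 points over all eligible tiles. The median of their NSC means was 60%, and 1774 of the 1959 had an NSC mean between 20 and 80%. Close to the limit lay chr4:175051001-175052000, at 60, 79.4, 70 and 90% in NSC 1 to 4, and chr10:12568001-12569000, at 9.57, 0, 9.21 and 30%. Just outside it lay chr8:78857001-78858000, at 98.1, 68.1, 95.6 and 86.0%, and chr12:28234001-28235000, at 60.3, 58.6, 54.7 and 84.7%. These 4 tiles had 11.8 to 15 reads per cytosine in the shallowest NSC library, and the limit divides a continuous distribution of ranges.

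The share of tiles past the limit fell as depth rose. Depth is given here as reads per cytosine in the shallowest NSC library, in classes added after the data had been seen. Among tiles with an NSC mean of 40 to 60%, 31.5% were variable at 10 to 15 reads per cytosine, 19.6% at 15 to 20, 14.5% at 20 to 30, 3.21% at 30 to 50 and 1.27% (2 of 158) at 50 or more. Over NSC means of 20 to 80% the share went from 23.8% at 10 to 15 reads to 1.23% at 50 or more. At 30 reads or more there were 38 variable tiles of 4550 eligible ones, and at 50 or more 9 of 1601. How much of the range in the shallower tiles is counting error was not tested. The Pearson chi-square over the 4 libraries divided by its degrees of freedom had a median of 9.80 in the variable tiles and 2.39 in all eligible tiles, and it can pass 1 without a difference because reads repeat across cytosines.

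**Figure D1:**
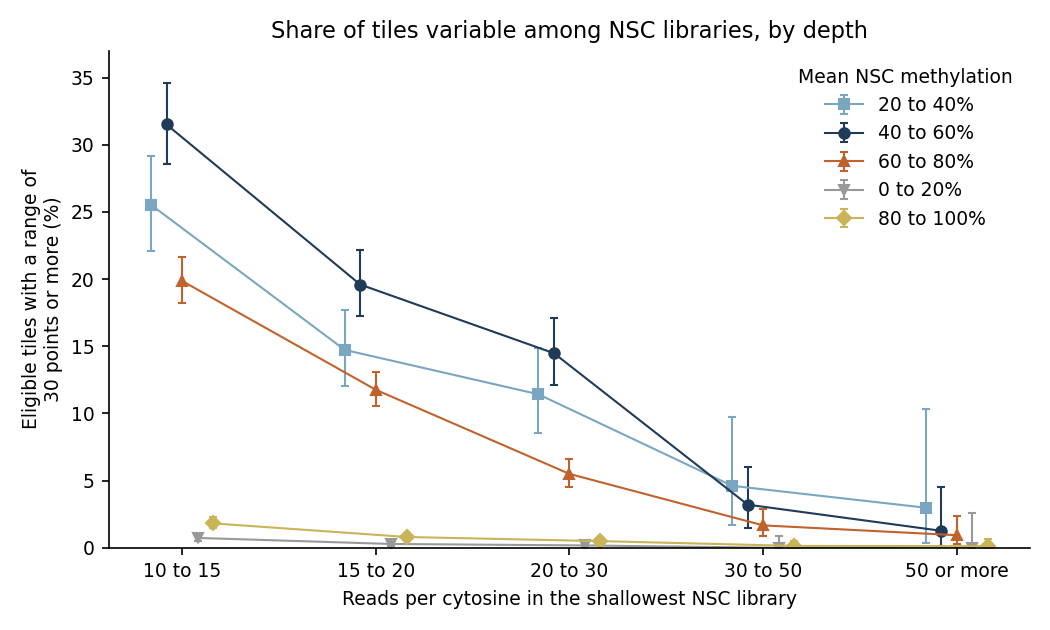
Share of eligible tiles (vertical axis, %) with a range of 30 points or more among the 4 NSC libraries, by reads per cytosine in the shallowest NSC library (horizontal axis) and by mean NSC methylation (symbols); bars are exact 95% binomial intervals that take tiles as independent. The share at 40 to 60% methylation falls from 31.5% in the shallowest class to 1.27% in the deepest.

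The 11 tiles that the account turns on are lettered A to K, with their values by library in the plot of methylation by tile. Tile A, chr17:66194001-66195000, had the largest range among tiles with at least 100 summed reads in every NSC library whose range stayed at 30 points or more without the cytosine, or adjacent pair of cytosines, that differed most. It read 83.8, 96.5, 33.8 and 62.3% in NSC 1 to 4, 34.1, 33.3, 62.2 and 34.6% in the day 1 libraries (replicates 1, 3, 4 and 5), and 73.6, 85.5, 60.4 and 99.0% in week 1. Day 1 replicate 4 stood above the other day 1 libraries, and the day 1 and week 1 values overlapped only in the narrow span between 60.4 and 62.2%.

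The difference in tile A lay at some of its cytosines and not at others. The cytosine at 66194633 read 75.4, 93.6, 1.23 and 42.1% in NSC 1 to 4, on 57 to 81 reads. It read 0, 0, 46.5 and 0% in day 1 and 59.6, 74.4, 34.4 and 98.4% in week 1. The cytosine at 66194622, 11 bp away, stayed between 84.2 and 100% in all 4 NSC libraries and between 93.0 and 100% in the day 1 and week 1 libraries. The day 1 and week 1 values of the tile rest on 3 of its 6 cytosines, those with enough reads in every library of the group.

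Tiles B, C and D differed along their whole measured length in NSC, which was a small part of each tile. The measured cytosines lay at 158455819 to 158455844 in B, 83726460 to 83726505 in C and 28096215 to 28096293 in D. Each span is shorter than 300 bp, so the same reads can cover several cytosines of a tile. Tile B, chr3:158455001-158456000, read 81.8, 59.3, 63.7 and 19.3%, with all 7 cytosines higher in NSC 1 than in NSC 4, 6 of them by 30 points or more. Tile C, chr11:83726001-83727000, read 63.2, 23.4, 82.9 and 82.5%, with all 7 cytosines at least 36.7 points apart. Tile D, chr20:28096001-28097000, read 60.5, 11.8, 10.4 and 5.51%, with all 6 cytosines at least 45 points apart. In each of the 3 tiles 1 library stood far from its neighbours, and it was a different library each time. Tile C varied again in day 1, at 44.3, 48.8, 21.7 and 77.9%, on 68 to 203 summed reads, whereas tiles B and D had too few reads in the other groups.

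**Figure D2:**
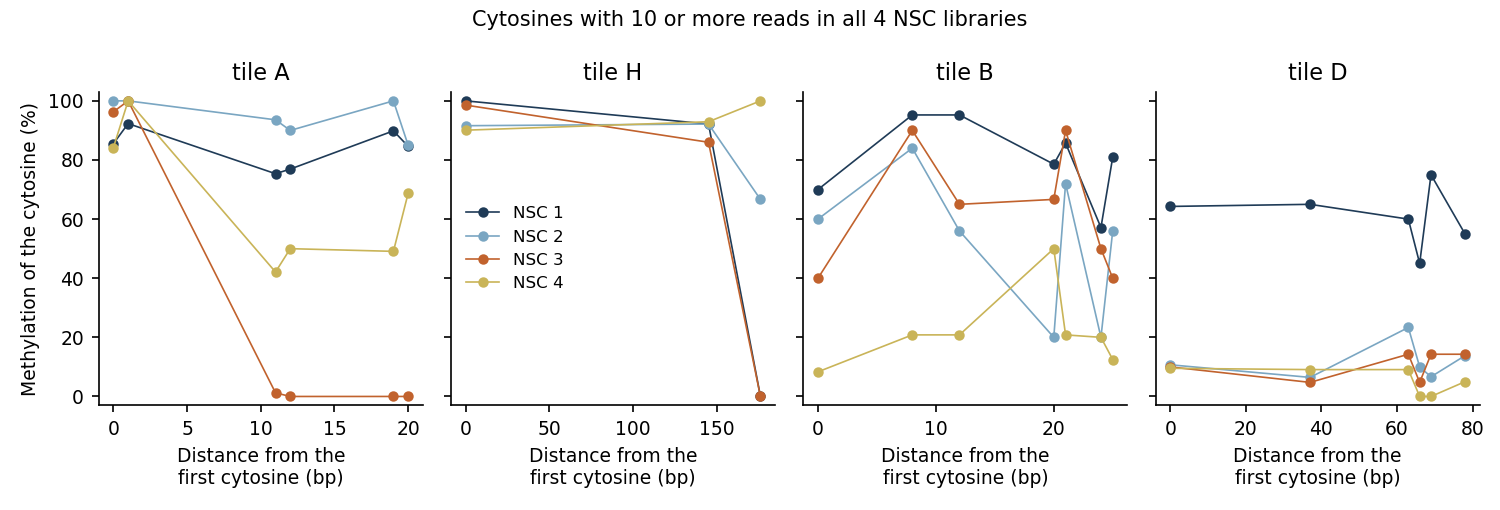
Methylation of each cytosine (vertical axis, %) against its distance from the first cytosine of the tile (horizontal axis, bp) in the 4 NSC libraries (colours) for tiles A, H, B and D; points joined by lines are cytosines with 10 or more reads in every NSC library. In A and H some cytosines are near 90 to 100% in every library while others spread from near 0 to near 100%, and in B and D the libraries stay apart over most cytosines.

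Tiles E and F had like ranges over very different cytosines. Tile E, chr3:2265001-2266000, was the most deeply read of the lettered tiles with 2379 to 8162 summed reads over 19 cytosines, and read 53.3, 51.1, 29.7 and 21.1% in NSC, 18.2, 44.0, 48.5 and 35.7% in day 1 and 57.2, 81.4, 66.7 and 41.8% in week 1. The groups overlapped. The next tile on the chromosome, chr3:2266001-2267000, was also variable, at 32.4, 49.5, 19.5 and 13.6% in NSC, with NSC 3 and NSC 4 the lowest libraries in both tiles. Tile F, chr2:235417001-235418000, read 54.1, 17.6, 16.1 and 21.7%, yet none of its 21 cytosines was 30 points or more apart between its highest and lowest library, with 28.8 points the largest difference. It was lettered for that, as the tile with the fewest such cytosines among the 6 whose smallest range over the 3 groups was largest. In tile F the cytosine at 235417411 was at 0% in all 4 NSC libraries and that at 235417997 at 82.4 to 86.0%, and the first had 12 reads in NSC 1 against 66 in NSC 2 while the second had 116 against 55. With each cytosine weighted equally, a measure added after the data had been seen, the range of tile F went from 38.0 to 1.81 points. Over all variable tiles 1668 stayed at 30 points or more with equal weights and 24 dropped under 15.

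Tiles G and H belong to the 9 variable tiles with 50 or more reads per cytosine, which were chosen for their depth after the data had been seen. Tile G, chr6:106295001-106296000, read 39.4, 40.9, 89.3 and 83.3% in NSC and 78.6, 83.8, 41.2 and 76.9% in day 1. Its cytosine at 106295495 read 0.532, 1.43, 83.1 and 70.5% in NSC and 62.1, 69.6, 0 and 66.4% in day 1, the cytosine at 106295505 was at 88.0% or more in all of those libraries, and that at 106295515 moved as the first did (4.26, 0, 70.6 and 58.3% in NSC). At the first position every library of both groups was either under 2% or above 60%.

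Tile H, chr7:122013001-122014000, read 63.2, 83.9, 65.9 and 93.8% in NSC, and a single cytosine made the range. Tile H was lettered for this, as the deep tile measured in all 3 groups whose range was smallest without its most different cytosine. That cytosine, at 122013953, read 0, 66.7, 0 and 100% on 50 to 102 reads, while the cytosine at 122013922 read 92.2, 92.2, 86.0 and 92.9%. At 122013953 the day 1 libraries read 59.8, 65.4, 0 and 94.4% and the week 1 libraries 87.9, 97.8, 81.5 and 60.4%, so the position varied again in day 1. Without the cytosine that differed most, 4 of the 9 deep tiles had ranges of 3.99 to 10.003 points, tile G had 23.8, and the other 4 had 29.6 to 40.8.

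**Figure D3:**
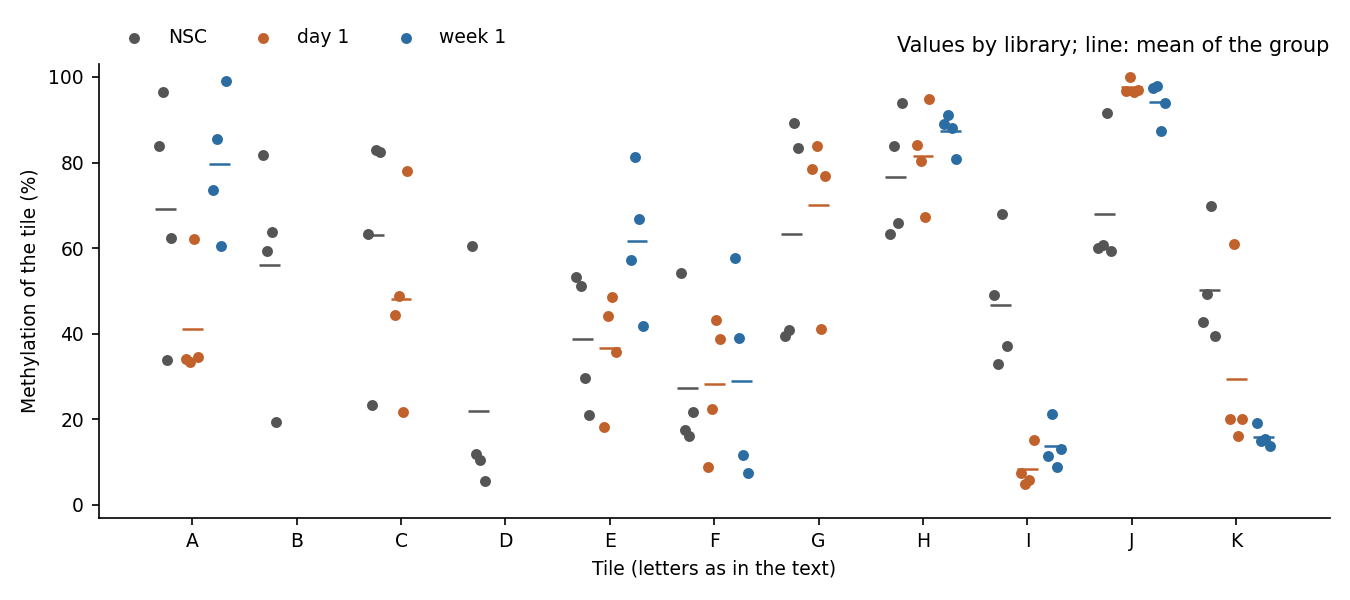
Methylation (vertical axis, %) of the 11 lettered tiles (horizontal axis) in each NSC, day 1 (4 libraries) and week 1 library; points are libraries and lines are group means, and a group is blank where the tile had too few reads. A spreads from 33.8 to 96.5% in NSC, E overlaps between groups, and I and J are spread in NSC and narrow in the other groups.

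Counted over all variable tiles, the cytosines of a tile mostly leaned the same way. Between the highest and the lowest library of their tile, 5251 of 8364 cytosines (62.8%) were 30 points or more apart. In 1506 tiles (76.9%) every cytosine was higher in the highest library, and in 261 (13.3%) every cytosine was 30 points or more higher. The rule used these values, so the lean itself is part of the choice. Without the most different cytosine or pair 1036 tiles (52.9%) still had a range of 30 points or more. Among the 38 tiles with 30 or more reads per cytosine 13 did and 11 dropped under 15 points, against 1023 and 57 of the 1921 shallower tiles.

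Blocks of cytosines more than 300 bp apart, beyond the length of a retained fragment, were compared after the data had been seen, choosing on the first block and reading the other. In 704 eligible tiles whose first block had a range of 30 points or more, the other block differed between the same 2 libraries by a median of 0 points, and 48.7% of the differences had the same sign. In 26 of these tiles the other block was 30 points or more apart the same way, and in 23 the opposite way. With the other block at 20 to 80%, which leaves it room to differ, 359 tiles had a median of 1.89 points, with 5.85% 30 or more apart the same way and 5.01% the opposite way. In the 209 variable tiles with 2 or more blocks the other block differed by a median of 9.85 points, 66.0% had the same sign, and 20.6% were 30 points or more apart the same way against 5.26% the opposite way, but both blocks entered the choice of these tiles. Among tiles whose first block had a range under 30 and whose other block was at 20 to 80%, 6.30% of other blocks were 30 or more apart the same way and 5.40% the opposite way. Eligible neighbours of the variable tiles differed between the same libraries by a median of 0.656 points (256 neighbours, 53.9% of the same sign). For neighbours at 20 to 80% the median was 2.51 points (130 neighbours, 61.5%), beside 1.70 points (875 neighbours, 57.03%) around other tiles at 20 to 80%. Of the variable tiles 1893 stood alone within 5000 bp, 31 runs held 2, and the longest run held 4.

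All 4 NSC libraries took part in the spread. The largest gap between the sorted values set 1 low library against 3 in 896 tiles (45.7%), 1 high library against 3 in 647 (33.0%) and 2 libraries against 2 in 416 (21.2%). NSC 1 to NSC 4 were the lowest library in 448, 544, 493 and 474 tiles and the highest in 414, 489, 496 and 560. The library of the fewest reads, NSC 4, was the highest most often and was not the lowest most often.

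The share that was variable went from 7.83% of tiles with 3 cytosines to 0.798% of those with 10 or more, and from 16.7 to 5.96% among tiles with an NSC mean of 20 to 80%. Tiles with fewer cytosines also have fewer summed reads. By chromosome the share ran from 4.11% (chromosome 14) to 6.51% (chromosome 12). Reads of the highest and the lowest library differed by 2-fold or more in 11.8% of variable tiles and 11.6% of all eligible tiles. Tiles were not assigned to genes, since annotation of the files' assembly was not used here.

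The first question for these tiles was whether they vary again within the operated groups, in libraries the rule did not use. A tile was measured in a group where at least 3 of its cytosines had 5 or more reads in each of the 4 libraries and where the summed reads reached 40 in each. Of the 1959 tiles 1420 could not be measured in day 1, 1828 in week 1 and 1400 in either, which leaves 539 for day 1 and 111 for both groups together. In day 1, 122 of the 539 (22.6%, exact 95% binomial interval 19.2 to 26.4%) again had a range of 30 points or more, against 3.56% of all 19014 eligible tiles measured. In week 1, 34 of those measured (26.0%, interval 18.7 to 34.3%) did, against 3.54% of all 9181. The median range was 19.96 points in day 1 and 19.7 in week 1, against 7.36 and 7.70 over all eligible tiles measured. A range under 10 points was found in 87 of the 539 in day 1 (16.1%), against 63.2% of all eligible tiles measured. With 1 library left out, which narrows any range, the shares were 12.4 to 16.9% in day 1 (2.06 to 2.49% of all) and 15.3 to 21.4% in week 1 (1.62 to 2.61% of all). With all 5 day 1 libraries 8 of 22 tiles passed (36.4%), against 3.2% of all.

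Tiles near 0 or 100% have little room to vary and the variable tiles are rarely there, so tiles were set side by side within classes of NSC mean. Among tiles with an NSC mean of 20 to 80%, a class chosen after the data had been seen, 120 of 498 variable tiles (24.1%) and 387 of 5712 others (6.78%) had a day 1 range of 30 points or more. In week 1 these were 33 of 124 (26.6%) and 227 of 2783 (8.16%). Classed also by depth in day 1, the shares were 36.0 against 12.02% at 5 to 10 reads per cytosine, 23.7 against 10.4% at 10 to 15, 18.6 against 4.96% at 15 to 20, 13.7 against 3.24% at 20 to 30, and 38.9 (7 of 18) against 1.69% at 30 or more. The variable tiles were above the others in each of the 5 depth classes in day 1 and in each of the 5 in week 1, where the deepest class held 2 of 5 tiles against 1.19%. Within the 20 to 80% class the others lay more often at 60 to 80%, 3610 of 5712 against 222 of 498 variable tiles. In narrower classes the day 1 shares were 27.3 against 14.1% at 20 to 40% and 31.6 against 9.53% at 40 to 60%. At 60 to 80% they were 16.7 against 4.21%. In week 1 they were 26.9 (7 of 26) against 14.8%, 29.2 against 13.2% and 24 against 5.07% in the same order. The difference between the 2 kinds of tile was not tested.

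**Figure D4:**
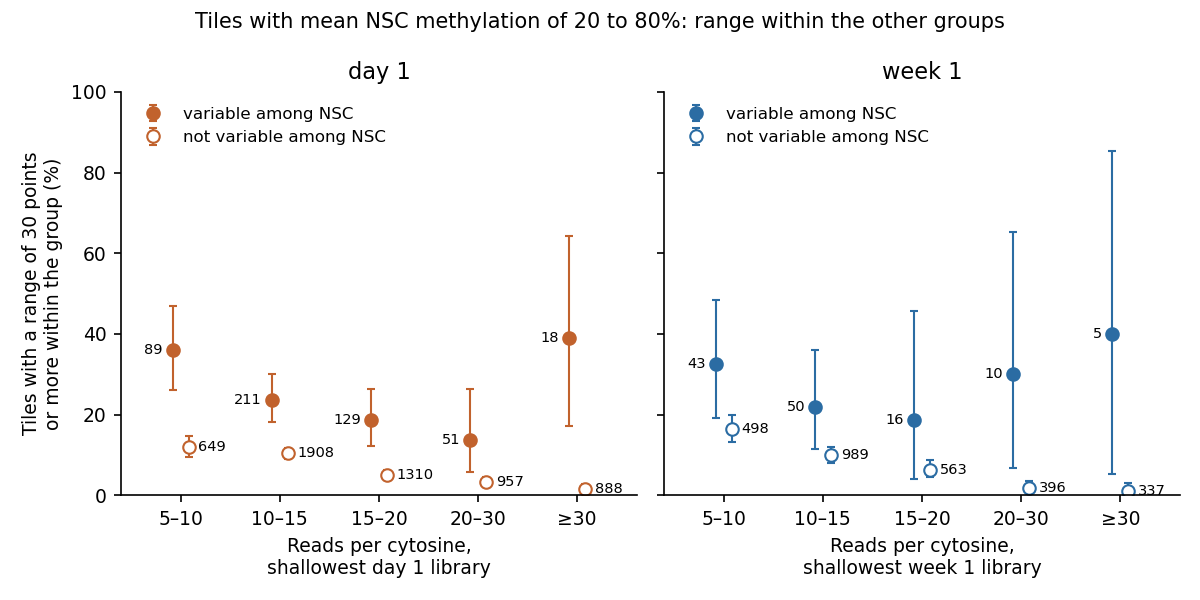
Share of tiles (vertical axis, %) with a range of 30 points or more among 4 day 1 libraries (left) or 4 week 1 libraries (right), by reads per cytosine in the shallowest library of that group (horizontal axis), for tiles with an NSC mean of 20 to 80%; filled points are tiles variable among NSC, open points all others, numbers are tiles and bars exact 95% binomial intervals. Filled points lie above open points in every class, at 36.0 against 12.02% in the shallowest day 1 class and 38.9 against 1.69% in the deepest.

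Repetition in both groups was less frequent. Of the 111 tiles measured in both, 10 had a range of 30 points or more in both, 11 in day 1 alone, 22 in week 1 alone and 68 in neither, and 50 of 8272 eligible tiles did so in both. By NSC depth, the variable tiles with 30 to 50 reads per cytosine varied again in 5 of 23 cases in day 1 and 3 of 14 in week 1, and those with 50 or more in 5 of 8 and 4 of 7. All eligible tiles of these depths did so in 1.66 and 2.999% at 30 to 50 reads and in 1.43 and 1.72% at 50 or more. In the 3 shallower classes the variable tiles' shares were 17.3 to 25.2% in day 1 and 18.2 to 44% (11 of 25) in week 1. All eligible tiles of these classes did so in 3.71 to 4.44% in day 1 and 3.88 to 4.76% in week 1. Across tiles with an NSC mean of 40 to 60% and 20 or more reads per cytosine in both groups, the NSC range and the day 1 range had a Spearman correlation of 0.303 (434 tiles) and the NSC and week 1 ranges 0.271 (175 tiles). These describe tiles that share the same libraries and depth profile.

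Some tiles that varied in NSC were narrow after surgery. Tile I, chr8:20548001-20549000, read 49.1, 32.9, 67.9 and 37.2% in NSC, 7.54, 4.84, 5.78 and 15.2% in day 1 and 11.5, 21.4, 8.96 and 13.1% in week 1. Tile J, chr9:109096001-109097000, read 60.1, 60.7, 91.5 and 59.2% in NSC, 96.8, 100, 96.6 and 97.1% in day 1 and 97.4, 97.9, 87.3 and 93.9% in week 1. Both were named for their small ranges in day 1 and week 1, so narrowness there is the choice and not a result. Among tiles so named, tile I was lettered for the largest fall from the NSC mean to the day 1 mean. Tile J was lettered because its 12 values lay nearest 0, 50 and 100%. Their levels against NSC are therefore part of the choice too. Their operated libraries also lay close to 0 or 100%, where ranges are small in all tiles. In tile I all operated libraries were below all NSC libraries, and in tile J all day 1 libraries were above all NSC libraries while NSC 3 reached into the week 1 values.

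The other question was whether values gather near 0, 50 and 100%, counted as 10% or less, 40 to 60% and 90% or more, windows that cover 40 of 100 points. In the variable tiles 38.8% of the 7836 NSC values lay in a window, 2.26% near 0, 29.7% near 50 and 6.93% near 100. In day 1 the share was 38.3% of 2156 values, with 2.69, 14.7 and 20.9% in the 3 windows, and in week 1 32.3% of 524, with 4.39, 13.4 and 14.5%. Over all eligible tiles the shares were 54.4, 64.5 and 60%, made up mainly of values near 0 and 100. NSC values of the variable tiles were most frequent at 50 to 70%, and no 3 separate peaks were seen in bins of 10 points. All 4 NSC values of a tile lay in windows in 13 tiles, and 0 of the 1959 tiles used all 3 windows. With the reads as deposited the windows held no larger share of the variable tiles' values than of the axis they cover in any of the 3 groups. This turned with a fixed number of reads drawn at each cytosine (10 in NSC, 5 in the other groups), where they held 42.8% in NSC, 50.1% in day 1 and 47.3% in week 1. In day 1 and week 1 that setting also had a lower summed minimum and took in more tiles, with 5156 and 2664 values. The change in these 2 groups therefore cannot be put down to the drawing alone. Narrower windows of 5 points, which cover 20 points, held 18.2, 16.9 and 13.5%.

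**Figure D5:**
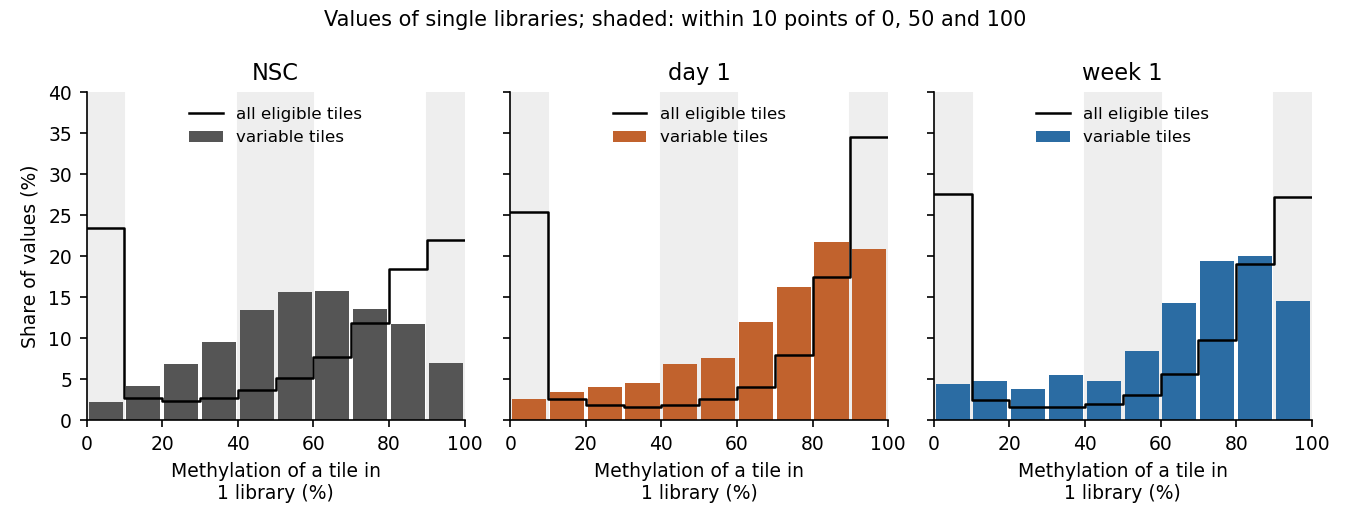
Distribution of methylation values, 1 per tile and library (horizontal axis, % in bins of 10; vertical axis, share of values in %), for variable tiles (bars) and all eligible tiles (line) in NSC, day 1 and week 1, with the windows near 0, 50 and 100% shaded. Bars form 1 broad hump that peaks at 60 to 70% in NSC and at 80 to 90% in day 1 and week 1, whereas the line is high at both ends.

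Single cytosines, examined after the data had been seen, gave another picture. Of 25595 cytosines in eligible tiles with 30 or more reads in every NSC library 194 had a range of 50 points or more, 52 of them in variable tiles and the others in eligible tiles under 30 points. Limits of 30, 40, 50 and 60 points were looked at before 50 was taken. Of 160 that had another cytosine within 50 bp, 97 differed from the nearest one, which moved by less than 15 points between the same libraries. For 63 the nearest one moved by 15 points or more, often by less than the cytosine itself and for a few the opposite way. Few of the former lay in variable tiles, 11 of the 97. In 10 cases the adjacent position on the other strand was also listed with 10 or more reads, and in 3 of these it differed by 30 points or more the same way.

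These cytosines varied again in the operated groups. With 20 or more reads in every library, 57 of 107 (53.3%, interval 43.4 to 63.0%) had a day 1 range of 50 points or more, against 0.939% of all such cytosines and 1.93% of those with an NSC mean of 20 to 80%. In week 1, 28 of 54 (51.9%, interval 37.8 to 65.7%) did, against 1.01% and 2.44%. Those within variable tiles did so in 14 of 25 and 6 of 13 cases. At limits of 30, 40 and 60 points, applied to both groups, the share that passed again was 30.6, 39.6 and 50% in day 1, against 5.70, 2.05 and 0.488% of all, and 35.4, 50 and 29.4% in week 1, against 6.89, 2.40 and 0.383%.

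Day 1 and week 1 values of these cytosines were also counted in the windows near 0, 50 and 100%. In day 1 65.9% of 428 values were in a window (24.1, 21.7 and 20.1% near 0, 50 and 100), and in week 1 67.6% of 216. Over all cytosines with the same reads the shares were 63.7 and 58.8%, mostly near 0 and 100, and over those with an NSC mean of 20 to 80% they were 33.0 and 32.3%. The NSC values of these cytosines were spread by the choice, and its part in the window shares was not tested. At limits of 30 points the shares were 42.8 and 42.5%. Those within variable tiles had 72.0% of 100 values in a window in day 1 and 50% of 52 in week 1. The cytosine at 245457767 in chr1:245457001-245458000 read 46.9, 41.2, 92.9 and 0% in NSC, 59.3, 54.8, 89.3 and 0% in day 1 and 91.2, 0, 95.5 and 57.8% in week 1, while the cytosine at 245457801 stayed between 78.6 and 97.9% in all 12 libraries. In every group the first position had a library at 0%, at least 1 library at 89.3% or more, and at least 1 between 41.2 and 59.3%. This position was named after its values were seen and is not typical. All values lay in windows, with all 3 windows used, at 9 of the 194 cytosines in NSC. The same held for 7 of 107 in day 1 and 1 of 54 in week 1.

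The last comparisons were of level between groups. The mean of a variable tile was higher in day 1 than in NSC by a median of 13.6 points, against 2.62 points over all eligible tiles measured. In classes of NSC mean the gap narrowed, with 20.9 points in variable tiles and 17.5 in others at 40 to 60%, and 12.9 against 10.7 at 60 to 80%. In week 1 the medians at 40 to 60% were 17.0 and 11.8 points, and at 20 to 40% the order turned, at 0.437 (26 tiles) and 7.27.

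For the tests 7955 tiles, 100 of them variable, had enough reads in 12 libraries, and edgeR's quasi-likelihood test was fitted on all of them with Benjamini-Hochberg adjustment. The contrasts with NSC use the values that chose the tiles, so their counts are given as a description and nothing is read from them. In day 1 34 of the 100 were called (adjusted p under 0.05 and 10 points or more), where 17.9% of all tiles were called. Of these 30 were higher and 4 lower, against 14.9% and 2.9% of all. In week 1 21 of the 100 were called, against 11.8% of all, with 18 higher and 3 lower, against 8.85% and 2.93% of all. Among other tiles with an NSC mean of 20 to 80% the shares called were 45.1% in day 1 and 29.2% in week 1, with median differences of 10.8 and 7.50 points beside 11.3 and 9.72 in the variable tiles.

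Over the cytosines read in all 12 libraries tile I was at 47.6% ± 15.6 (SD, n = 4) in NSC, 8.81% ± 4.64 in day 1 and 13.7% ± 5.36 in week 1. Tile J was at 68.1% ± 16.4 in NSC, 97.6% ± 1.86 in day 1 and 93.3% ± 5.66 in week 1. No test is given for tiles I, J and K against NSC, because the NSC spread chose them. For I and J the small spread and the level in the operated groups did so too.

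Tile K, chr5:162630001-162631000, was the deepest by reads per cytosine, with at least 148 in every NSC library. It read 42.8, 49.3, 69.9 and 39.4% in NSC, 20.1, 61.0, 16.2 and 20.1% in day 1 and 19.2, 14.9, 15.4 and 13.9% in week 1. Day 1 replicate 3 lay inside the NSC values, and all other operated libraries lay below them. The means were 50.3% ± 13.7 in NSC, 29.3% ± 21.2 in day 1 and 15.8% ± 2.35 in week 1 (SD, n = 4 each).

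Between week 1 and day 1, a comparison that uses no NSC value, edgeR's test called 0 of the 100 variable tiles and 2 of all 7955 (0.0251%). At an unadjusted p under 0.05 there were 8 of the 100, and limma on the percent values called 0, with 4 at an unadjusted p under 0.05. The median difference was -2.78 points in the variable tiles and -0.757 over all tiles tested. Tile A, named here for its values, was at 41.1% ± 14.1 in day 1 and 79.6% ± 16.5 in week 1 (n = 4 each), with an adjusted p of 0.343 in edgeR's test. On simulated counts in which every tile had a spread between libraries like that of the variable tiles, the test found few of the changed tiles. In the data 100 of the 7955 fitted tiles were variable, so the simulation does not give the power for them. The 0 calls do not show that the tiles did not differ.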

How the data were processed

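Per the labels' protocols, DNA was cut by the enzyme MspI, freed of fragments longer than 300 bp and treated with bisulfite. The submitters' processing notes name the assembly mRatBN7.2 and, with no role or order, methylKit 1.14.2, Bismark 0.23.0, FastQC and Trim Galore. Each deposited file lists CpG cytosines with 5 or more reads, giving a methylated read count, a total read count and a percent. The deposited counts were used as they are, and the percent was recomputed from them because the deposited percent is truncated. Of 14 samples 13 had a file. Groups came from the label that gives the time, and replicates were numbered in accession order. The sample codes follow the groups. The order of processing is not known here, and an effect of it cannot be told apart from group.

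Python 3.11.15 and R 4.3.3 were used. Tile counts were tested with edgeR 4.0.16 (quasi-likelihood F test with common dispersion, library terms and group terms for the methylated share) and, as an alternative, limma 3.58.1 on percent. P-values measure only the spread between these samples. The test was run on simulated counts at 2 spreads between libraries, the wider one first and the narrower one added after its outcome was seen. It recovered most changed tiles at a spread like that of other tiles, and hardly any at one like that of the variable tiles. In neither case was an unchanged tile called. Each spread was given to all simulated tiles, unlike the data, where 100 of 7955 were variable, so neither run gives the power for the variable tiles.

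Named tiles were taken from variable tiles with at least 100 summed reads in every NSC library and a range of 30 points or more without the most different cytosine or pair. They were the 6 with the largest range and, among tiles measured in all 3 groups, the 6 whose smallest range over the 3 groups was largest, the 4 whose 12 values lay nearest 0, 50 and 100%, the 4 with the smallest ranges after surgery, and tiles called between week 1 and day 1, of which there were 0, with 1 tile per run within 5000 bp in each list. Deep tiles, tile G, tile H, tile K and single cytosines were added after their values were seen. The tiles, the rule and the tests were chosen with earlier results of these data known. Planned gene lists and genome features were not run, because no genome or annotation of mRatBN7.2 was used here.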

Additional observations from a re-analysis of the deposited data

Results flagged for a closer look

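In 63 sets of 4 values, 1 per named tile and group with data over 24 tiles, 10 had a highest or lowest library far from the other 3. Chance marks about 1 in 20 sets in tiles that were not chosen by their values. Here the NSC values were used to choose the tiles. Day 1 and week 1 values also entered several of the lists, or were seen before tiles were added. The 10 sets are therefore not set against that rate. In NSC, tile D (chr20:28096001-28097000) had 1 library at 60.5% with the others at 5.51 to 11.8%, and tile F (chr2:235417001-235418000) 1 at 54.1% with the others at 16.1 to 21.7%. Tile J (chr9:109096001-109097000) had NSC 3 at 91.5% with the others at 59.2 to 60.7%, and chr5:159821001-159822000 had NSC 3 at 57.4% with the others at 90.6 to 96.8%.

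In day 1, tile A (chr17:66194001-66195000) had replicate 4 at 62.2% with the others at 33.3 to 34.6%, and tile G (chr6:106295001-106296000) had replicate 4 at 41.2% with the others at 76.9 to 83.8%. Tile K (chr5:162630001-162631000) had replicate 3 at 61.0% with the others at 16.2 to 20.1%, and tile J had replicate 3 at 100% with the others at 96.6 to 97.1%. In week 1, chr1:7477001-7478000 had replicate 4 at 43.1% with the others at 0 to 1.52%, on 5 cytosines. The tile at chr5:159821001-159822000 had week 1 replicate 2 at 83.3% with the others at 95.2 to 96.9%.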

How the results depend on the processing

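The count of variable tiles followed the depth and the limit set: 269 with at least 20 reads per cytosine, 4042 with at least 5, 4353 of 42766 with 10 reads drawn at each cytosine and a lower summed minimum, 559 with at least 5 cytosines, 541 at 40 points or more, 1036 without the most different cytosine or pair, and 1171 to 1308 with 1 NSC library left out. The share again past 30 points in day 1 was 37.2% with 5 reads drawn (10.9% of all), 32.4% for tiles at 40 points or more in NSC, 49.9% at a 20 point limit (11.7% of all), 16.0% with at least 100 summed reads (1.15% of all), 32.3% for tiles with 30 reads per cytosine in NSC (added after the data were seen), 36.4% of 22 tiles with all 5 libraries (3.20% of all), and 12.4 to 16.9% with 1 day 1 library left out (2.06 to 2.49% of all). For the 2 day 1 settings without a share of all, that share was 3.56%. In week 1 the share again past the limit was 41.3, 34.5 and 49.6% under the first 3 of these settings (14.0, 3.54 and 11.4% of all). With 1 week 1 library left out it was 15.3 to 21.4% (1.62 to 2.61% of all). Under each of these settings the share was above that of all eligible tiles. With reads drawn, here and for the values below, the operated groups had a lower summed minimum. That measured 1289 variable tiles in day 1 and 666 in week 1. Values near 0, 50 and 100% made up 18.2, 16.9 and 13.5% in NSC, day 1 and week 1 in windows of 5 points, 42.8, 50.1 and 47.3% with reads drawn, and 28.5 and 23.3% in day 1 and week 1 with at least 100 summed reads. Variable tiles called against NSC in day 1 were 22 at 25 points or more, 2 of 14 with all 13 libraries, 10 of 38 with at least 10 reads in all libraries, and 23 to 35 with 1 library left out. Of all tiles tested, 5.58, 14.5, 21.7 and 13.8 to 18.2% were called under these settings. With all 13 libraries the day 1 share of variable tiles, 14.3%, was no higher than that of all tiles. In week 1 they were 3 of 14, 8 of 38, and 16 to 25, against 9.16, 15.3 and 9.14 to 11.9% of all. The 14 and 38 are the tiles left by those filters. Week 1 against day 1 stayed at 0 calls under all alternatives run. Of 24 named tiles, the NSC range moved by more than 1 SD in 1 with reads drawn, in 1 with equal weights and in 4 without the most different cytosine. Those 4 were deep tiles added later. The other lists admitted only tiles that kept 30 points or more without that cytosine, so their steadiness there is part of the choice. The SD is that of the tile's own NSC values and is wide. Tile G, for example, fell from 49.9 to 23.8 points and was not counted as moved. No paired analysis was possible because replicate numbers are in accession order and pair no samples. Depth limits the rest, since 1400 of the 1959 tiles were not measured in day 1 or week 1, and files list no cytosine under 5 reads.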

Other observations

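On chromosome X, which the rule leaves out, 4 of 231 tiles that met the same minimums had a range of 30 points or more among the NSC libraries (1.73%, exact 95% binomial interval 0.474 to 4.37%), against 5.24% on chromosomes 1 to 20. Among tiles with an NSC mean of 20 to 80% it was 4 of 47 (8.51%, interval 2.37 to 20.4%), against 13.9%. At 15 or more reads per cytosine the shares of that class were 9.38% (3 of 32) and 9.84%, and at 10 to 15 reads 6.67% (1 of 15) and 23.8%. These rats are labelled male and carry 1 X chromosome. The first interval lies below the share of the other chromosomes and the second holds it, and the X chromosome tiles come from the same 4 libraries.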
